A study of Mus musculus with 6 samples.

Results

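The genes described here encode transcription factors that direct cartilage and bone formation: Sox9, Sox5, Sox6, Runx1, Runx2, Mef2c and Trps1. They were taken by symbol from a list of 8 such genes, of which 7 have a row among the 10189 genes of the deposited expression table, and Runx3 was not analysed here. Chondrocytes, which make and keep up cartilage, were grown from pooled knee and hip articular cartilage of 5-week-old C57BL/6 mice, and their total RNA was sequenced. The miR-34a KO mice (genotype MiR-34a -/-) were homozygous for a global deletion of the microRNA gene Mir34a and came from heterozygous parents, and the wild-type mice served as controls. Each genotype had 3 libraries. The label for the mouse model, Mir34atm1.2 Mrl, stands on the samples of both genotypes, the cultures grew untreated for about 10 days, and no label tells whether libraries of 1 genotype stem from different mice or dishes. Each title carries a code of its own, and those of wild type 1 and 3 share a number, but what the codes stand for is not stated. The p-values below therefore rest on a spread between libraries that may be technical. Per the title, the study asked which pathways lie downstream of miR-34a-5p in cartilage.

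SOX9 starts and maintains the chondrocyte fate and binds enhancers of the cartilage collagen and aggrecan genes, while SOX5 and SOX6, related proteins without an activation domain, bind beside it and strengthen its action. RUNX2, with help from MEF2C, drives chondrocytes to enlarge, mineralize and give way to bone, so that the balance of SOX and RUNX factors is a common way to describe how far a chondrocyte has matured. In culture on plastic, chondrocytes are known to lose much of their SOX9-dependent programme. MicroRNAs such as miR-34a lower the output of messenger RNAs that carry a match to the seed, bases 2 to 8 of the microRNA, in the 3′ untranslated region (3′ UTR).

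The sequence of miR-34a-5p, the main mature strand of the deleted gene, is shown first. Direct targets are commonly sought by its seed, given in capitals. Other mature strands with the same seed are miR-34c-5p, named only, and those printed below it from the RefSeq microRNA set (build GRCm38.p6), whose genes lie on chromosomes 9 and 13, whereas Mir34a lies on chromosome 4.
mmu-miR-34a-5p: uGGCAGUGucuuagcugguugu
mmu-miR-34b-5p: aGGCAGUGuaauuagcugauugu
mmu-miR-449a-5p: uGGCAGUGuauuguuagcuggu
mmu-miR-449c-5p: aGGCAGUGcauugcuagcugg

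Among the 7 factor genes, Sox6 was the 1 gene with a seed match in its longest annotated 3′ UTR (GENCODE M21, the mouse annotation of build GRCm38, which is mm10). A match was CACTGCC, or ACTGCCA, on the transcript strand. Of 9349 genes of the table with an annotated 3′ UTR of at least 20 bases, 2442 (26.1%) held such a match. This share is not matched for length, and the longest 3′ UTRs of the 7 factor genes had 2250 to 6046 bases. A longer 3′ UTR has more room for a match. The Sox6 3′ UTR is 6046 bases long and holds a match at base 1319, followed by the A that makes an 8-base site, and another at base 5618, which is 429 bases from its end. They lie on the minus strand of chromosome 7 at chr7:115475591-115475613 and chr7:115471293-115471314. They are printed with 14 bases before the match and 1 after it, the match in capitals.
Sox6 site 1: gagtcagcagtggtCACTGCCAg
Sox6 site 2: gcaaaggagtggatCACTGCCc
Runx2 held no match in its longest 3′ UTR of 3904 bases. It held 2 in a separate 3′ UTR of 1424 bases that belongs to a transcript annotated as subject to nonsense-mediated decay, at chr17:44497073-44497094 and chr17:44496958-44496980 on the minus strand. They are shown because, apart from Sox6, Runx2 alone among the 7 genes had a match in any annotated 3′ UTR. Matches in other annotated 3′ UTRs of Sox6 and Runx2 were not listed.
Runx2 site 1: ctgcagcctctgtcCACTGCCt
Runx2 site 2: atgcccagctgcccCACTGCCAc
The longest 3′ UTRs of Sox9 (2250 bases), Sox5 (4839), Runx1 (4189), Mef2c (4449) and Trps1 (5923) held no match. A match is a description of the letters and not evidence of binding.

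The values are TMM-normalized CPM, read counts scaled by the authors to a common library size, from which 1235981 to 1991232 whole reads per KO library and 989217 to 5266617 per wild-type library were recovered. Rn45s, which makes ribosomal RNA, and Lars2 took 59.1% and 18.8% of the reads of wild type 1, and 1134384 of its reads lay outside these genes and Mir6236. The chondrocyte label was checked on 14 marker genes, of which 12 had a row. Their summed level was 6899.8, 3831 and 4018 CPM in KO 1, 2 and 3, against 3827, 2805 and 2495 CPM in wild type 1, 2 and 3. Which strand was counted is unknown, and Tsix, the antisense partner of Xist, exceeded it by 8.12 times or more in each library. Where an exon overlaps a gene on the opposite strand, reads of both genes cannot be told apart. The factor genes are low: Sox9, Sox5 and Sox6 had 121, 130 and 239 reads over the 3 KO libraries, against 54, 56 and 95 over the wild-type libraries.

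None of the 7 factor genes passed the test between genotypes. Limma, fitted over all 10189 genes on log2(CPM + 0.5), called 0 of the 7 at an adjusted p below 0.05, where it called 0.00981% of all genes. At an unadjusted p below 0.05 it also counted 0 of the 7, against 4.64% of all genes higher and 6.4% lower in KO. The quasi-likelihood test of edgeR, limma-voom and DESeq2 on the recovered reads each called 0 factor genes. The shares of all genes called were 0.0196% with edgeR and 0.00981% with limma-voom, of 10189 genes. DESeq2 called 2.66% of the 4056 genes to which it gave an adjusted p, which 4 of the 7 factor genes had and Sox9, Sox5 and Sox6 did not. Of the 7 genes, 6 had a higher mean on the log scale in KO (51.4% of all genes did) and Mef2c a lower one. Their median log2 fold change was 0.16, against 0.02 over all genes. Counts of higher or lower means in the gene lists below are on the same log scale.

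**Figure D1:**
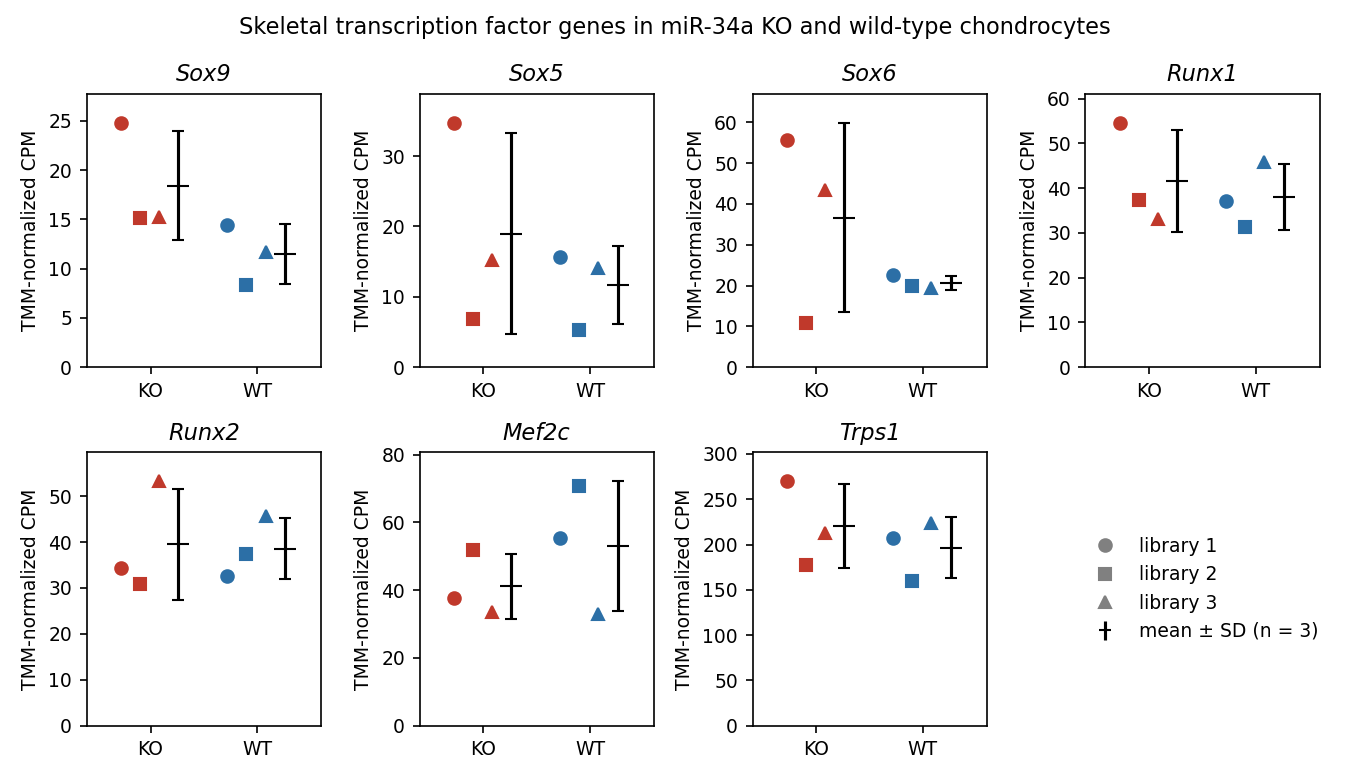
TMM-normalized CPM of the 7 factor genes in the 3 KO and 3 wild-type (WT) libraries, each library with its own symbol, and the mean ± SD of each genotype in black. The genotypes overlap for each gene except Sox9, whose KO libraries lie at 15.2 to 24.8 CPM and wild-type libraries at 8.38 to 14.4 CPM.

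Sox9 lies on the plus strand of chromosome 11 at 112782224 to 112787760 and shares no exon base with a gene on the opposite strand. It had 24.8, 15.2 and 15.3 CPM in KO 1, 2 and 3, against 14.4, 8.38 and 11.7 CPM in wild type 1, 2 and 3. Each KO value was above each wild-type value, but KO 2 exceeded wild type 1 by less than 1 CPM, and these libraries held 31 and 23 Sox9 reads. Such separation was seen with KO higher in 8.82% of all genes and with KO lower in 9.57%, and among the 7 factor genes Sox9 alone showed it. Sox9 averaged 18.4 ± 5.52 CPM in KO and 11.5 ± 3.04 CPM in wild type (SD, n = 3 each). The log2 fold change was 0.65 (standard error 0.39, adjusted p = 0.547 with limma), with a 95% interval that runs from 0.855-fold to 2.88-fold. The interval includes no change. Leaving out 1 library at a time gave log2 fold changes of 0.42 to 0.82.

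Sox5 and Sox6 had the widest spread of the 7 genes, and most of it lay among the KO libraries. Sox5, on the minus strand of chromosome 6 at 143828425 to 144781977, had 34.7, 6.86 and 15.3 CPM in KO 1, 2 and 3, against 15.7, 5.33 and 14.1 CPM in wild type 1, 2 and 3. KO 1 stood above the rest, while KO 2 and wild type 2 were the low libraries of their genotypes, with 14 and 7 reads. Sox5 averaged 19.0 ± 14.3 CPM in KO and 11.7 ± 5.58 CPM in wild type (SD, n = 3 each). Its log2 fold change was 0.52 (standard error 0.63, adjusted p = 0.763 with limma), and it was −0.05 without KO 1 and 0.06 without wild type 2. Of its exon bases, 1330 (9.25%) overlap Sox5os1 on the opposite strand.

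Sox6, on the minus strand of chromosome 7 at 115470872 to 116038796, had 55.7, 10.8 and 43.4 CPM in KO 1, 2 and 3, against 22.6, 19.8 and 19.3 CPM in wild type 1, 2 and 3. The wild-type libraries were close together, whereas 2 KO libraries lay above all of them and KO 2 below all of them. The coefficient of variation of Sox6 was 63.4% in KO, where counting error alone gives about 13.8%, and 8.59% in wild type, where counting error gives 17.9%. Sox6 averaged 36.6 ± 23.2 CPM in KO and 20.6 ± 1.77 CPM in wild type (SD, n = 3 each). The log2 fold change was 0.53 (standard error 0.54, adjusted p = 0.714 with limma). It was 0.08 without KO 1, 0.26 without KO 3 and 1.24 without KO 2 (limma adjusted p = 0.150), so the KO libraries decide its size.

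The SOX genes shared their high library but not their whole pattern. Summed over Sox9, Sox5 and Sox6, the level was 115, 32.8 and 74.0 CPM in KO 1, 2 and 3, against 52.8, 33.5 and 45.1 CPM in wild type 1, 2 and 3. KO 1 was highest for all 3 genes. In KO 2, Sox5 and Sox6 lay 0.86 and 1.16 below their means over the 6 libraries on the log2 scale, while Sox9 lay 0.09 above its mean. As a level per kb of exon, the ratio of Sox5 plus Sox6 to Sox9 was 1.03, 0.328 and 1.08 in KO 1, 2 and 3, against 0.749, 0.842 and 0.805 in wild type. The wild-type ratios were thus close together and the KO ratios lay outside them on both sides. Wild type 1, 2 and 3 held 23, 11 and 20 Sox9 reads, for which counting error alone gives about 24.5%. The closeness of their ratios is therefore not a measure of low spread. Within genotypes, the SD of Sox6 and Sox5 on the log2 scale (0.89 and 0.98) was above that of 92.5% and 87.3% of the genes whose mean level was within 2-fold of theirs. For Sox9 the SD was 0.39, above 27.2% of such genes.

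**Figure D2:**
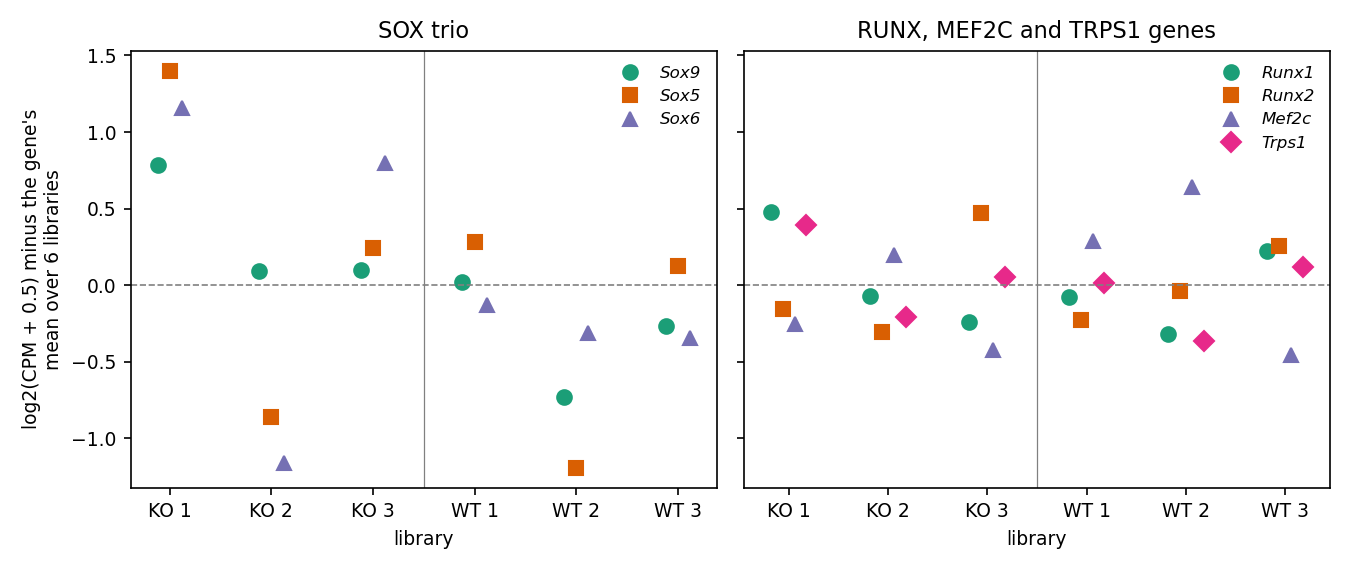
Level of each factor gene in each library, as log2(CPM + 0.5) minus the gene's mean over the 6 libraries, with the SOX genes on the left and the other 4 genes on the right. Sox5 lies 1.40 above its mean in KO 1, and Sox6 and Sox5 lie 1.16 and 0.86 below theirs in KO 2, while Runx2 and Runx1 stay within 0.48 of theirs in each library.

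Neither RUNX gene passed the test, and their genotypes overlapped. Runx2 lies on the minus strand of chromosome 17 at 44495987 to 44814797 and had 34.3, 30.9 and 53.2 CPM in KO 1, 2 and 3, against 32.7, 37.3 and 45.7 CPM in wild type 1, 2 and 3. The KO values enclosed the wild-type values, with KO 3 and wild type 3 as the high libraries. Runx2 averaged 39.5 CPM in KO and 38.6 CPM in wild type (n = 3 each), with coefficients of variation of 30.5% in KO and 17.2% in wild type. The log2 fold change of these levels was 0.01 (standard error 0.28, adjusted p = 0.994 with limma). The 95% interval of the fold change was 0.647 to 1.56, and the sign changed between alternatives (−0.23 without KO 3, 0.16 without KO 2). Of its exon bases, 519 (5.87%) overlap Runx2os1 on the opposite strand.

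Runx1, which is best known from blood formation and also acts in early chondrocytes, lies on the minus strand of chromosome 16 at 92601466 to 92826149. It had 54.6, 37.2 and 33.0 CPM in KO 1, 2 and 3, against 37.1, 31.2 and 45.7 CPM in wild type 1, 2 and 3. KO 1 was the highest of the 6 libraries and the other 5 were mixed. Its log2 fold change was 0.11 (standard error 0.28, adjusted p = 0.897 with limma), which was −0.10 without KO 1 and −0.02 without wild type 2. The exons share 106 bases with the antisense gene Gm26626.

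Mef2c encodes a MADS-box factor that acts in chondrocyte enlargement as well as in muscle, vessels and myeloid cells. It lies on the plus strand of chromosome 13 at 83504034 to 83667080. It had 37.8, 51.9 and 33.6 CPM in KO 1, 2 and 3, against 55.3, 70.9 and 32.8 CPM in wild type 1, 2 and 3. Wild type 3 was the lowest library and wild type 2 the highest, so all KO values lay inside the wild-type range. The log2 fold change was −0.32 (standard error 0.32, adjusted p = 0.713 with limma), −0.08 without wild type 2 and −0.62 without wild type 3. Mef2a, the MEF2 gene with the smallest p in the list of related family members, went the other way, with 106, 135 and 108 CPM in KO libraries and 83.6, 79.2 and 85.6 CPM in wild-type libraries. Its log2 fold change was 0.48 (standard error 0.19, adjusted p = 0.403 with limma), which did not pass.

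Trps1 encodes a GATA-type zinc finger protein that mostly represses transcription and shapes growth plate cartilage; its loss in humans causes tricho-rhino-phalangeal syndrome. It lies on the minus strand of chromosome 15 at 50654752 to 50890463. With 707, 363 and 348 reads in KO and 330, 209 and 381 in wild type, it was the best measured of the 7 genes. It had 269.8, 178 and 213 CPM in KO 1, 2 and 3, against 207, 159 and 223 CPM in wild type 1, 2 and 3. The genotypes overlapped, with KO 1 highest and wild type 2 lowest. The log2 fold change was 0.16 (standard error 0.22, adjusted p = 0.803 with limma), with a 95% interval of 0.791-fold to 1.57-fold, the narrowest of the 7 genes. Without KO 1 it was −0.00051, and without wild type 2 it was 0.01. Neither Trps1 nor Mef2c nor Sox6 shares exon bases with an opposite-strand gene.

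**Figure D3:**
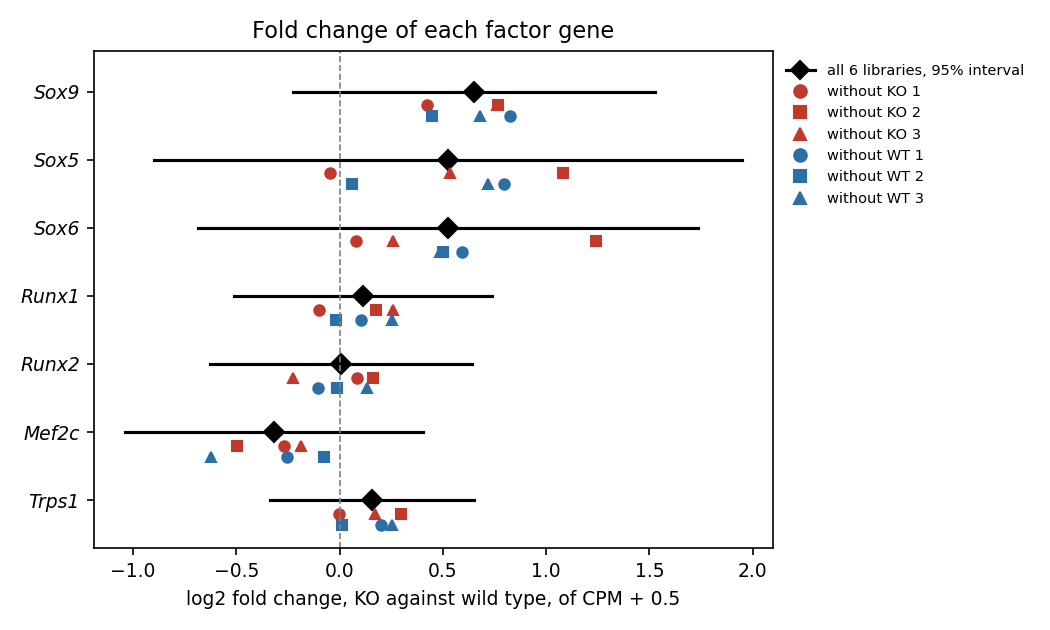
Log2 fold change (KO against wild type, on CPM + 0.5) of each factor gene over all 6 libraries with its 95% interval from limma, in black, and the value without each library, in colour. All 7 intervals include 0, and the values for Sox6 run from 0.08 without KO 1 to 1.24 without KO 2.

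Levels were compared between genes per kb of annotated exon. Trps1 had the highest level, 16.5 ± 3.47 CPM per kb in KO and 14.7 ± 2.49 CPM per kb in wild type (SD, n = 3 each), and its lowest library lay above the highest library of every other factor gene. Runx2 followed with 4.47 ± 1.36 in KO and 4.37 ± 0.749 in wild type, and Sox9 with 4.46 ± 1.34 in KO and 2.79 ± 0.735 in wild type, in the same unit. Next came Runx1 with 3.46 ± 0.950 in KO and 3.16 ± 0.607 in wild type, and Mef2c with 2.62 ± 0.610 in KO and 3.37 ± 1.22 in wild type. The ranges of Runx2, Sox9, Runx1 and Mef2c overlapped from each to the next, so their order is not resolved. Sox6 (2.47 ± 1.57 CPM per kb in KO, 1.39 ± 0.119 in wild type) and Sox5 (1.32 ± 0.994 in KO, 0.814 ± 0.388 in wild type) had the lowest means. Their ranges overlapped, but Sox6 was above Sox5 in 6 of 6 libraries. The level of Runx2 over that of Sox9, per kb, was 0.648, 0.951 and 1.63 in KO 1, 2 and 3, against 1.06, 2.08 and 1.82 in wild type 1, 2 and 3, and the genotypes overlapped. With the length of the longest annotated transcript in place of all exon bases, Trps1 stayed first and Sox6 and Sox5 last, while Mef2c took the second place and Sox9 the fifth.

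**Figure D4:**
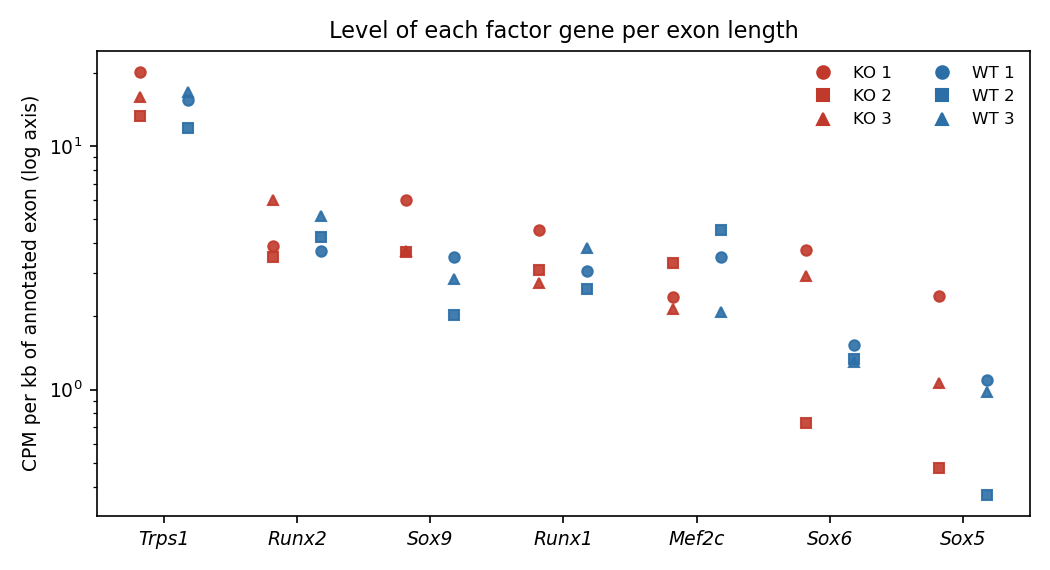
CPM per kb of annotated exon on a log axis for the 7 factor genes, ordered by their mean, with KO libraries left of wild-type libraries. Trps1 lies at 11.9 to 20.2 CPM per kb and the others between 0.371 and 6.02.

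By likeness of profile, measured as the root mean square difference of centred log2 values over the 6 libraries among genes with a mean of at least 10 CPM, the genes nearest to Sox9 were Ctdsp2 (0.03), B3glct (0.05) and Tpst1 (0.07). Nearest to Sox6 were Sned1 (0.13), Mterf4 (0.16) and Eya4 (0.16), and nearest to Sox5 were Kdelc2 (0.20), Ccdc58 (0.25) and Cdon (0.25). Sned1, for example, had 213, 31.8 and 143 CPM in KO 1, 2 and 3, against 75.4, 60.2 and 60.4 CPM in wild type, the pattern of Sox6 at a higher level. Among the factor genes themselves, the closest profiles were those of Runx1 and Trps1 (0.15) and the most distant those of Sox5 and Mef2c (1.16). For Runx2 the 3 nearest included 1700022I11Rik (0.09) and Nbeal2 (0.10). The nearest were, for Runx1 Nudcd3, Foxc1 and Tmem167 (0.08 to 0.09), for Mef2c Srebf1 (0.11), Ccdc25 (0.12) and Ccnyl1 (0.14), and for Trps1 Stt3b (0.05), Ndufs1 (0.05) and Cpsf3 (0.06). These are the smallest differences picked from 8696 genes. For Sox9, counting error alone gives about 16.8% in KO and 24.5% in wild type. Closeness of profile is therefore not evidence that genes vary together.

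Matrix genes known as SOX9 targets had higher means in KO in 9 of 11 measured cases, although none passed the test over all genes. Limma called 0 of the 11 at an adjusted p below 0.05, while 6 were higher and 0 lower at an unadjusted p below 0.05 (4.64% and 6.4% of all genes), and the median log2 fold change was 0.67. The summed level of the 11 was 6667, 3651 and 3857 CPM in KO 1, 2 and 3, against 3596, 2695 and 2335 CPM in wild type 1, 2 and 3. KO 1 was thus highest for the SOX genes and for these matrix genes, and KO 2 was the lowest KO library for both. KO 2 had the lowest sum of SOX genes of all libraries, but here it lay above each wild-type library. Acan, which encodes aggrecan, had 312, 197 and 112 CPM in KO 1, 2 and 3, against 75.4, 92.9 and 85.6 CPM in wild type (log2 fold change 1.17, standard error 0.33, adjusted p = 0.283 with limma). The collagen genes Col11a2, Col9a2 and Col9a3 had log2 fold changes of 1.94, 1.75 and 1.05, with KO above wild type in every library. DESeq2 called Col11a2 and Acan but not Col9a3 (adjusted p = 0.069 with DESeq2), and it gave Col9a2 no adjusted p.

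Target genes of RUNX2 were measured for 9 of 12 listed, beside Runx2 means of 39.5 CPM in KO and 38.6 CPM in wild type. Limma called 0 of the 9. Bglap and Bglap2, near-identical osteocalcin genes whose reads are uncertain, had 4.89 to 12.2 CPM in KO libraries and 0 reads in wild-type libraries. They could enter the filtered table only through KO, where their direction was then fixed, and are left out of the counts that follow. Of the other 7, 6 had higher and 1 a lower mean in KO, with a median log2 fold change of 0.54, and 2 were higher and 0 lower with an unadjusted p under 0.05. The summed level of all 9 did not follow that count, with 7836, 21171 and 7739 CPM in KO 1, 2 and 3, against 8015, 7233 and 6211 CPM in wild type 1, 2 and 3. Spp1, the osteopontin gene, which macrophages also express, made up most of the sum in KO 2 and in each wild-type library, but not in KO 1 or KO 3. This gene is named here after its values were seen. It had 2806, 17015 and 3093 CPM in KO 1, 2 and 3, against 6321, 4750.1 and 4689 CPM in wild type 1, 2 and 3. Ibsp, which encodes bone sialoprotein of mineralizing matrix, had 3620.3, 2628 and 3614 CPM in KO 1, 2 and 3, against 858, 1659 and 526 CPM in wild type 1, 2 and 3. Its genotypes did not overlap (log2 fold change 1.84, standard error 0.38, adjusted p = 0.238 with limma), and DESeq2 called it. In wild type 3, Ibsp had its lowest value while Runx2 had the second highest of the 6 libraries. The collagenase gene Mmp13 overlapped between genotypes, with 1030.5, 954 and 660.0 CPM in KO and 505, 382 and 746 CPM in wild type. Osteoblast markers are a list that shares genes with the RUNX2 targets, and 6 of 8 had a row. They summed to 4131, 3219 and 4145 CPM in KO and 1443, 2444 and 963 CPM in wild type. Ibsp made up most of this sum in each library. Without Bglap and Bglap2, 3 of 4 had higher means in KO. The other 1, Col1a1, had a lower mean (log2 fold change −0.54, adjusted p = 0.354 with limma). The part of osteoblasts in these values was not tested.

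**Figure D5:**
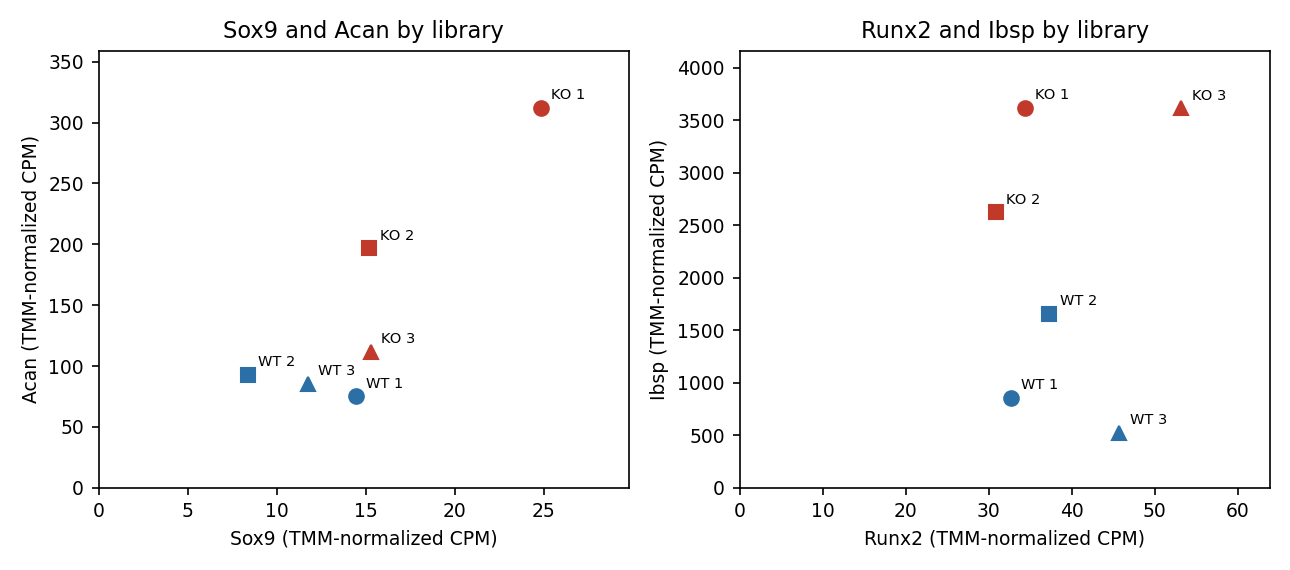
Sox9 against Acan (left) and Runx2 against Ibsp (right) in each library, in TMM-normalized CPM. KO 1 is highest for both Sox9 (24.8 CPM) and Acan (312 CPM), while Ibsp is at 2628 CPM or more in each KO library over Runx2 values of 30.9 to 53.2 CPM.

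Partners and upstream regulators of the factors, such as the RUNX subunit gene Cbfb and the histone deacetylases that restrain RUNX2 and MEF2C, were measured for 25 of 33 genes, and 0 passed with limma. Without Tle4, which could enter the table only through KO, 19 of 24 had higher and 5 lower means in KO, the median log2 fold change was 0.24, and a single gene had an unadjusted p below 0.05. That gene was Pth1r, the receptor through which parathyroid hormone-related protein delays chondrocyte maturation, with 48.9, 41.6 and 49.5 CPM in KO and 18.8, 34.3 and 28.7 CPM in wild type (log2 fold change 0.80, standard error 0.28, adjusted p = 0.348 with limma). Each KO value was above each wild-type value, as for Hdac5, which encodes a class II histone deacetylase (22.9 ± 4.31 CPM in KO and 12.9 ± 5.04 CPM in wild type, SD, n = 3 each). Fgfr3, which encodes a receptor that slows growth plate chondrocytes, followed KO 1 as the SOX genes did, with 88.9, 23.0 and 17.7 CPM in KO and 30.8, 9.14 and 8.79 CPM in wild type. Tle1, a corepressor gene, had 27.9, 6.86 and 24.5 CPM in KO and 3.14, 11.4 and 6.45 CPM in wild type. Like Sox6 it was high in KO 1 and KO 3 and low in KO 2.

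Other skeletal transcription factor genes showed no common direction: of 24 measured among 41 listed, 14 had higher and 10 lower means in KO, and the median log2 fold change was 0.11. Limma called 0 of them, and at an unadjusted p below 0.05 there were 1 with a higher and 2 with a lower mean. Gli3, which encodes a Hedgehog pathway factor, was the higher one, with 26.7, 16.2 and 22.6 CPM in KO and 9.42, 5.33 and 11.1 CPM in wild type (log2 fold change 1.32, standard error 0.42, adjusted p = 0.315 with limma). Cebpd and Atf4, genes of basic leucine zipper factors, were the lower ones, and neither overlapped between genotypes. Cebpd had 87.8, 94.6 and 128 CPM in KO and 185, 144 and 198 CPM in wild type, and Atf4 averaged 113 ± 17.4 CPM in KO and 156 ± 11.8 CPM in wild type (SD, n = 3 each). Prrx2, a limb mesenchyme homeobox gene, had 22.5, 7.35 and 20.8 CPM in KO and 3.77, 11.4 and 0 CPM in wild type. Of the list of other SOX, MEF2 and RUNX-related genes, 5 of 16 were measured and limma called 0. Without Mef2d, which could enter the table only through KO, 3 of 4 had higher means in KO (median log2 fold change 0.09).

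Several of these factors are also made by other cells, whose markers moved between libraries. In bulk samples, fewer cells of a type and less RNA per cell cannot be told apart. All 14 macrophage and leukocyte markers had a row, and their summed level was 1099.5, 15655 and 3538 CPM in KO 1, 2 and 3, against 6285, 5752 and 5465 CPM in wild type 1, 2 and 3. Lyz2 alone made up most of the sum in each library except KO 3. On the log scale, 12 of the 14 markers had lower and 2 higher means in KO (median log2 fold change −0.55). In CPM this can differ, as KO 2 weighs more. Lyz2 averaged 4839 ± 6371 CPM in KO and 3705 ± 409 CPM in wild type (SD, n = 3 each), with a log2 fold change of −0.66. KO 2, where Sox5 and Sox6 were lowest among KO libraries, was highest for the macrophage gene Lyz2 (12165 CPM, against 594 and 1757 in the other KO libraries) and for the leukocyte gene Ptprc (305 CPM, against 41.2 and 150.5). KO 1, the highest library for the SOX genes, was the lowest for both. Runx1, which macrophages also express, was highest in KO 1, where these markers were lowest. Mef2c was higher in KO 2 than in KO 1 and KO 3. The marker sums of wild type 1, 2 and 3 lay closer together. In these libraries Sox5 had 15.7, 5.33 and 14.1 CPM, Sox6 22.6, 19.8 and 19.3 CPM and Mef2c 55.3, 70.9 and 32.8 CPM. Mural markers, from smooth muscle cells and pericytes that can also express Mef2c, had a row for 6 of 8 listed. Their summed level was 122, 289 and 176 CPM in KO, against 464, 526 and 356 CPM in wild type. The 6 mural markers did not all move the same way, as 5 had lower and 1 a higher mean in KO. With limma, 4 were lower and 1 higher at an unadjusted p below 0.05. The higher one did not overlap between genotypes. Of the endothelial markers, 2 of 7 had a row, with summed levels of 0, 43.6 and 0 CPM in KO and 11.3, 19.8 and 34.0 CPM in wild type, and of 9 skeletal muscle markers Ttn alone had one. Of 8 neutrophil markers, 3 had a row, with summed levels of 3.05, 3.43 and 5.51 CPM in KO and 87.3, 86.1 and 76.2 CPM in wild type. All 3 could enter the filtered table only through wild type. The 6 of 7 fibroblast markers with a row summed to 4832, 3762 and 4919 CPM in KO and 6205, 5327 and 6475 CPM in wild type, each KO sum below each wild-type sum, while 4 of the 6 had higher and 2 lower means in KO. The part of these cells in the values of the factor genes was not tested. With wild type 1 (most reads on Rn45s) and KO 2 (most macrophage reads) left out together, limma called 0 of the 7 factor genes. The log2 fold changes were then 0.94 for Sox9, 1.36 for Sox5 and 1.31 for Sox6 (limma adjusted p = 0.471, 0.439 and 0.245).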

How the data were processed

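Per the labels' protocols, cartilage was digested in collagenase, the cells were grown in medium with serum, and Trizol RNA went into a stranded total RNA library kit. The deposited signal is TMM-normalized CPM of 10189 filtered genes, as the authors name it in the table title. The submitters' processing notes list the build mm10 and, with no order or purpose, edgeR, StringTie 1.3.5, HISAT2 2.1.0, cutadapt 1.18 and bcl2fastq. How genes were annotated, filtered and assigned to a strand is not given. In each row the second highest value was at least 7.35 CPM. A gene with all libraries of 1 genotype below that level is said to have entered the table only through the other, a rule added after the values were seen.

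Dividing by the value of 1 read gave whole numbers for 100% of entries (tolerance 0.001 reads); libraries held 989217 to 5266617 such reads, which served for edgeR 4.0.16, DESeq2 1.42.0 and limma-voom as alternatives. The main test was limma 3.58.1 (R 4.3.3) with its trend option, run on log2(CPM + 0.5); p-values are two-sided and adjusted by Benjamini-Hochberg across the whole table. Fold changes put KO over wild type on this scale, which understates changes of low genes. The procedure was tested on simulated data. Of 6 column names, 5 equalled a sample title and that of KO 3 differed by 1 character. 0 value columns were left unmapped.

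The members and gene lists were chosen with earlier results of these data known. Besides the members, up to 4 genes of smallest unadjusted p were named per list (those with p below 0.1, a limit added after the values were seen), with the 3 nearest profiles per member and context markers. One of the nearest profiles is not reported here. Other settings tried were pseudocounts, a level filter, scalings, limma settings, count tests, a replicate block, leaving out libraries, gene length and the choice of 3′ UTR. Summaries and plots used Python 3.11.15 with pandas 2.3.3, numpy 2.4.6 and matplotlib 3.10.9.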

Additional observations from a re-analysis of the deposited data

How the results depend on the processing

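No alternative brought any of the 7 factor genes past the threshold: over 126 fold changes under an alternative, the lowest adjusted p was 0.150. The sign held in 118 of them. Sox9, Sox6 and Mef2c kept theirs in all 18 alternatives each. Runx2 turned with limma-voom (−0.034). Leaving out 1 library at a time gave log2 fold changes of −0.046 to 1.08 for Sox5, −0.10 to 0.26 for Runx1, −0.23 to 0.16 for Runx2 and −0.00051 to 0.30 for Trps1. Over all genes, limma called 0 genes higher and 1 lower. The counts were 0 and 2 with a pseudocount of 2, 7 and 3 without trend, 1 and 3 with robust empirical Bayes, 0 and 2 with edgeR, 27 and 81 with DESeq2, 0 and 0 with a replicate block, and 0 and 2 without wild type 1 and KO 2 together. Leaving out 1 library gave 0 to 7 higher and 0 to 25 lower, the most without KO 2. Deviations of libraries with the same replicate number correlated at 0.0176, 0.0651 and −0.0555 across genes. Pairs with different numbers ran from −0.100 to 0.0935. With 3 libraries per genotype such values cannot tell whether the numbers pair the samples, which is unknown. The block changed no call of a factor gene. With the longest transcript as length, the levels per kb were 21.1 for Trps1, 6.04 for Runx2, 6.79 for Runx1, 7.50 for Mef2c, 3.30 for Sox6 and 2.12 for Sox5. With any annotated 3′ UTR, 2 factor genes held a seed match in place of 1. For the 17 named list genes, 0 of 304 fold changes turned and 5 passed the threshold, with DESeq2 or without trend. Sox9 and Sox5 rested on 7 to 91 reads per library.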
